A study of Mus musculus with 2 samples.

Results

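Carbonic anhydrases are zinc enzymes, and 4 of their genes were followed here across the blood, stroma and endoderm of the mouse yolk sac: Car1, Car2, Car4 and Car14. They were taken by gene symbol from the gene table of 33456 genes that both libraries share, in which 16 genes of the family stand. The members were chosen by their measured UMI levels in these same libraries, so those levels are a description and carry no test. The series holds 1 single-cell library from Baf155 CKO yolk sacs and 1 from wild-type (WT) yolk sacs, both of the B6 strain, made with the 10x Genomics 5′ chemistry. Baf155 is the chromatin remodelling subunit encoded by Smarcc1. In each library, E9.5 and E10.5 embryos went in together in equal numbers, and dead cells and cells with the red cell surface protein Ter119 were removed by sorting. No treatment is given in the labels, which call the material nuclei although the sorting is described for live cells. No source used here gives the Cre driver, the deleted exon, the number of embryos or the stage of any one cell.

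Carbonic anhydrases interconvert carbon dioxide and water with bicarbonate and protons. Car1 and Car2 encode cytosolic enzymes that are abundant in mature red cells, where they serve carbon dioxide carriage next to haemoglobin. Car4 encodes an enzyme anchored to the outer face of the plasma membrane by a lipid, and Car14 one that spans the membrane with its catalytic domain outside. The yolk sac makes primitive red cells first, which carry embryonic globins, and then erythromyeloid progenitors, whose definitive red cell progeny carry adult globins.

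The histidine pair that helps to hold the catalytic zinc is in the coding sequence of all 4 genes. The stretches around it are shown because the counts assume that reads of these related genes can be told apart. They are read from GENCODE M21 transcripts of GRCm38, 5′ to 3′ on the coding strand, with the 2 histidine codons in capitals.
Car1: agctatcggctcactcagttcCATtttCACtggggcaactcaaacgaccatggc
Car2: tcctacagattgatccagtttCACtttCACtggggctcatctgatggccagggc
Car4: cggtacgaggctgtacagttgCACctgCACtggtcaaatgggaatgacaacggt
Car14: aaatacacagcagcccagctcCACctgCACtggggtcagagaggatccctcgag
The capitals mark codons 95 and 97 of Car1, 94 and 96 of Car2, 114 and 116 of Car4, and 109 and 111 of Car14. Over these 54 bases Car1 and Car2 were identical at 64.8% of positions, and the other pairs at 46.3% to 51.9%. The longest run of bases that any 2 of the 4 transcripts shared anywhere was 15, between Car1 and Car2. Car1 (ENSMUSG00000027556) lies on chromosome 3 from 14766216 to 14808368 on the minus strand, and Car2 (ENSMUSG00000027562) on chromosome 3 from 14886273 to 14900770 on the plus strand, so 77904 bases separate the 2 genes, and Car3 lies between them, from 14863512 to 14872523. Car14 (ENSMUSG00000038526) spans 95897768 to 95904691 of chromosome 3 on the minus strand, and Car4 (ENSMUSG00000000805) spans 84957786 to 84966044 of chromosome 11 on the plus strand.

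After filtering, 841 CKO cells and 784 WT cells remained, with 26898690 and 24128723 unique molecular identifiers (UMIs, one for each captured RNA molecule). Smarcc1 itself stood at 24.0 CPM (counts per 1000000 UMIs) in the CKO library and 94.9 CPM in the WT library, with at least 1 UMI in 33.1% of CKO cells and 83.3% of WT cells. Whether those CKO UMIs come from inside the deleted part cannot be told. Cells were assigned to 7 classes by marker lists that hold no carbonic anhydrase and no globin: 121 CKO and 186 WT cells were progenitor-gated, 253 and 161 erythroid, 59 and 14 megakaryocyte, 10 and 41 macrophage, 85 and 58 endothelium, 287 and 250 stromal, 4 and 31 visceral endoderm, and 22 and 43 ungated. With 1 library per genotype no difference between genotypes can be tested. Brackets give exact 95% intervals for counting error only, which are narrower than any spread between embryos. Free globin RNA also differed: stromal-gated cells, which are not known to make globin, held a median of 0.229% globin UMIs in the CKO library and 0.0332% in the WT library.

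The 4 genes divided the tissue between them. Car1 and Car2 were blood genes, with 98.5% of CKO Car1 UMIs and 86.1% of CKO Car2 UMIs in erythroid-gated cells, against 55.0% and 80.5% in WT erythroid-gated cells. Car1 had 0 UMIs in 59 CKO megakaryocyte-gated cells, where the exact interval reaches 6.06% of cells, and 19 UMIs in 3 of 14 WT ones (32.8 CPM, 19.7 to 51.1), of which 1 cell held 15. Car4 was a gene of stroma and endoderm, with 85.8% of its UMIs in CKO stroma and 12.1% in CKO endoderm, against 56.8% in WT stroma and 42.1% in WT endoderm. Car14 was sparse, with 40 UMIs in 19 CKO cells and 121 UMIs in 48 WT cells, and its level was highest in endoderm in both libraries. Car1 and Car2 were found together in 38 of the 39 CKO cells and all 31 of the WT cells that had a Car1 UMI, while 0 cells of either library held both Car1 and Car14.

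**Figure D1:**
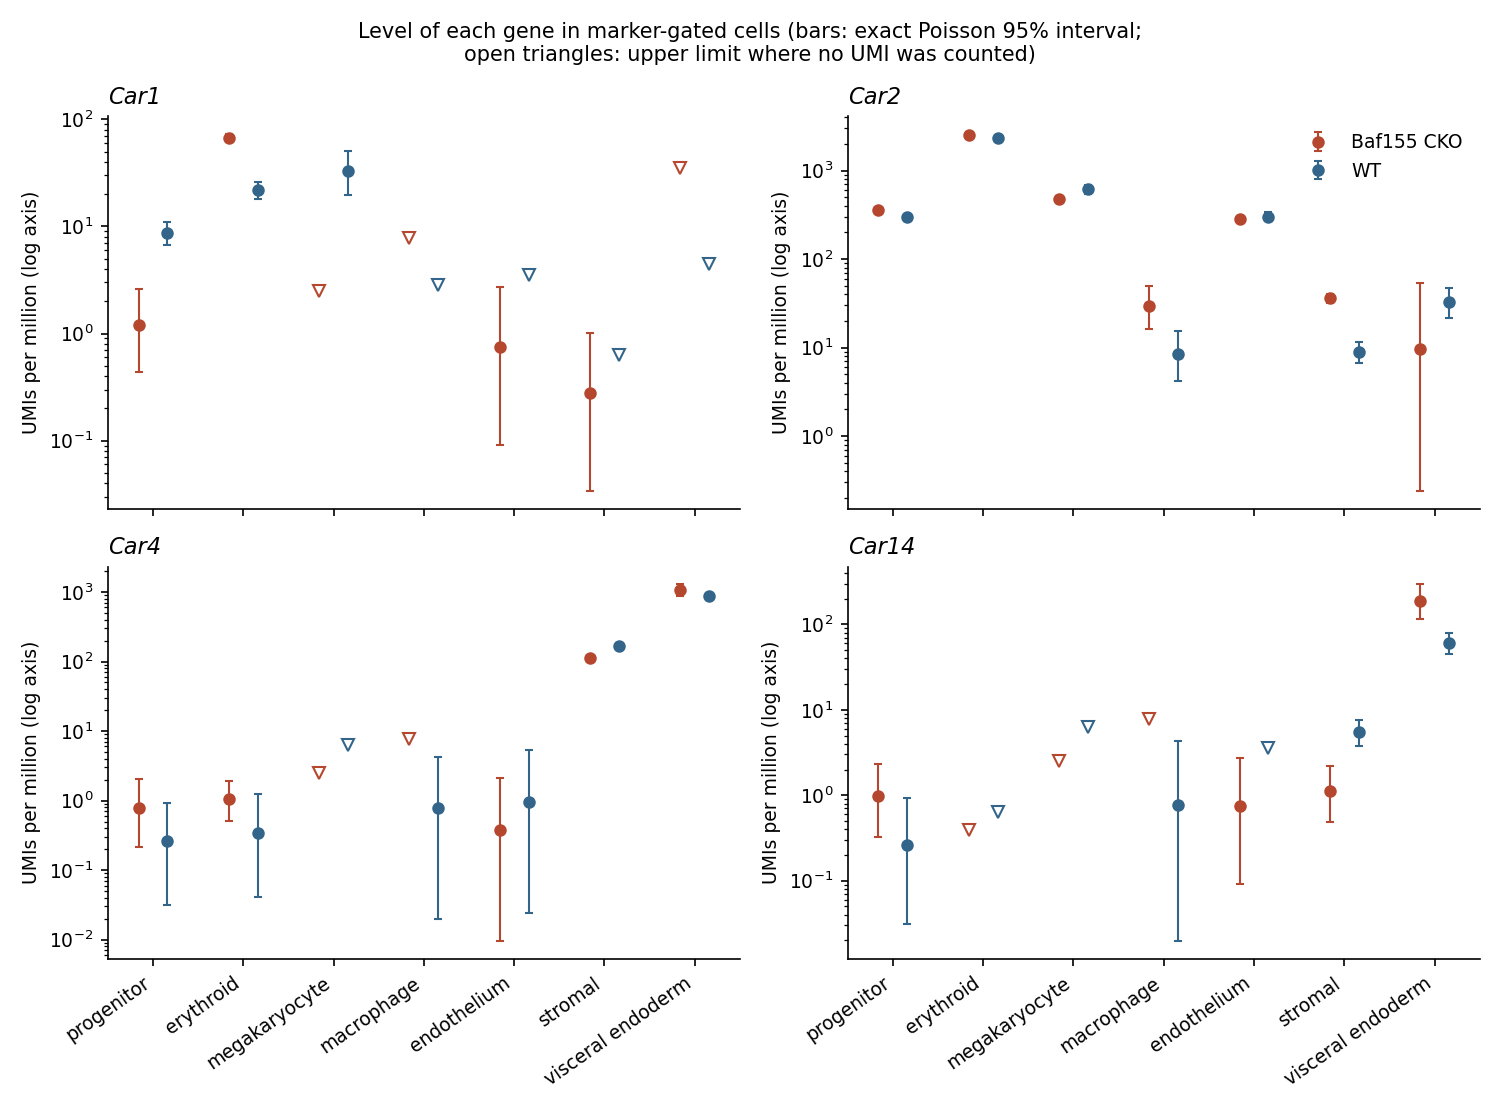
Level of Car1, Car2, Car4 and Car14 in CPM (vertical log axes) in each marker-gated class (horizontal axis), Baf155 CKO in red to the left of WT in blue; points are levels, bars exact Poisson 95% intervals, and open triangles the upper limit where no UMI was counted. Car2 peaks in erythroid-gated cells at 2546 CPM in CKO and 2338 CPM in WT, while Car4 and Car14 are highest in visceral endoderm.

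Car1 lay in different cells in the 2 libraries. Cells with a Car1 UMI were about as frequent in both, at 39 of 841 CKO cells (4.64%, 3.32 to 6.29) and 31 of 784 WT cells (3.95%, 2.70 to 5.57). In CKO these were cells full of globin, whose globin UMIs made up a median of 18.1% of the cell (range 0.133% to 30.3%). In WT they were cells with almost none, at a median of 0.124% (range 0.0239% to 32.0%). Of the 648 CKO Car1 UMIs, 638 lay in 29 cells with at least 5% globin, and of the 229 WT Car1 UMIs, 226 lay in 28 cells with under 1% globin.

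The separation was complete once cells with a single Car1 UMI were set aside. With at least 2 Car1 UMIs, the 20 CKO cells were all erythroid-gated and all held at least 6.47% globin, at a median of 21.6%. The 18 WT cells with at least 2 Car1 UMIs all held under 1% globin, at a median of 0.0969%. The globin ranges of these 2 sets of cells did not overlap. The globin-poor Car1 cells of the CKO library were 10 cells with 1 Car1 UMI each, in the progenitor (6), endothelium (2) and stromal (2) gates. Car1 UMIs per 1000 globin UMIs were 0.479 (0.176 to 1.04) in CKO progenitors and 0.119 (0.0144 to 0.431) in CKO stroma, beside 0.250 (0.231 to 0.270) in CKO erythroid cells, and the 3 intervals overlapped. In WT progenitors the same figure was 16.6 (12.9 to 21.1), against 0.0727 (0.0605 to 0.0865) in WT erythroid cells.

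**Figure D2:**
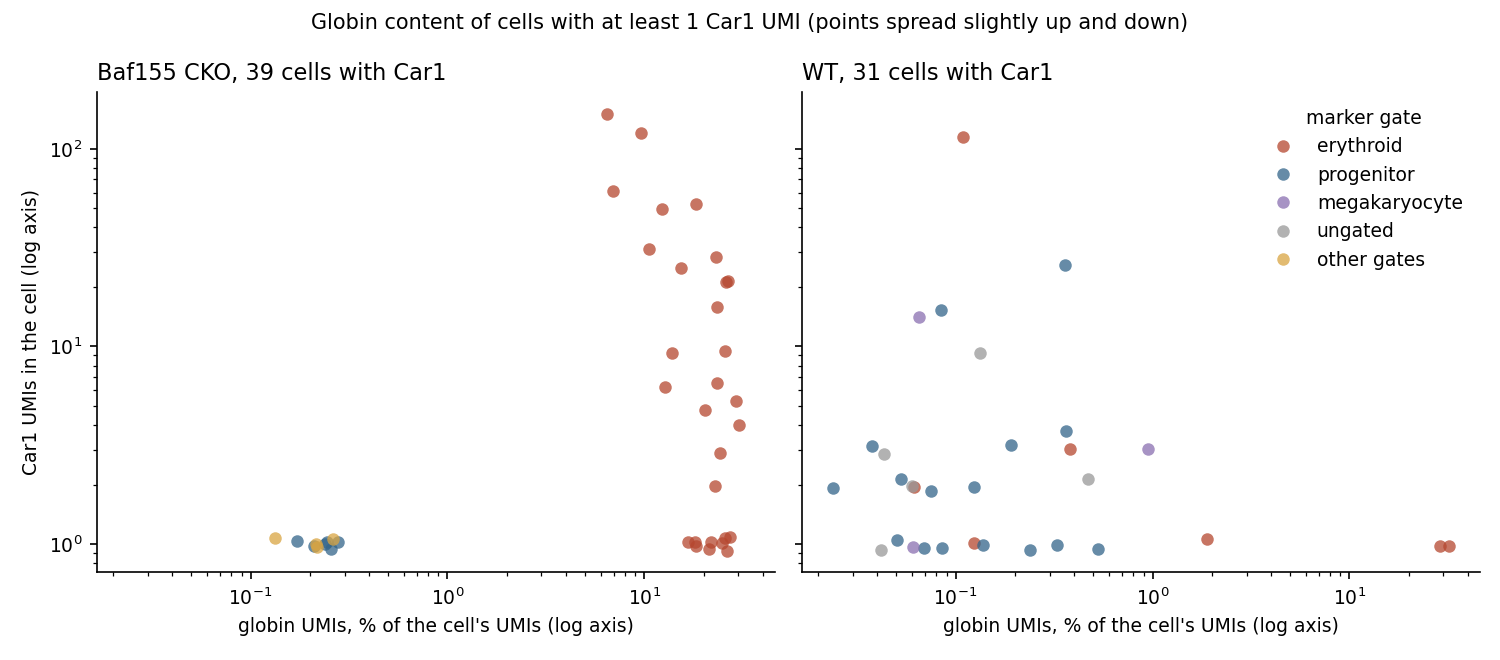
Each point is a cell with at least 1 Car1 UMI, placed by its globin content in percent of its UMIs (horizontal log axis) and its Car1 UMIs (vertical log axis), Baf155 CKO on the left and WT on the right, coloured by marker gate. Every CKO cell with 2 or more Car1 UMIs lies at 6.47% globin or above, and every such WT cell lies under 1%.

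A few cells held most of the Car1 RNA in each library. The 5 highest CKO cells held 147, 124, 66, 57 and 47 Car1 UMIs, together 68.1% of the library's, and their globin content was 6.47%, 9.57%, 6.90%, 18.3% and 12.2%. The 5 highest WT cells held 117, 27, 15, 15 and 9 Car1 UMIs, together 79.9%, with globin at 0.110%, 0.358%, 0.0843%, 0.0653% and 0.132%. These cells had much Car2 RNA too, with 142 Car2 UMIs in the highest CKO cell and 116 in the highest WT cell.

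In the progenitor gate, Car1 was lower in CKO. It had 6 UMIs in 121 CKO cells, each in a different cell, against 67 UMIs in 16 of 186 WT cells. That is 1.19 CPM (0.436 to 2.59) in CKO and 8.67 CPM (6.72 to 11.0) in WT, a 7.30-fold lower level in CKO (3.18 to 20.6; log2 ratio -2.87). The WT level rests on few cells, since 1 cell held 27 of the 67 UMIs and the 5 highest held 52. For comparison, 4.26% of the 10320 genes with at least 20 UMIs in this gate were at least 2-fold lower in CKO, 7.45% at least 2-fold higher and 11.7% past 2-fold in either direction. Thinned to 10000 UMIs a cell, 0.826% of CKO and 4.97% of WT progenitors kept a Car1 UMI, while the unthinned shares were 4.96% and 8.60%. The erythroid-primed gate, which asks a cell for 3 of 6 early erythroid markers and 2 progenitor markers and was added after the data were seen, gave another picture. There Car1 was in 2 of 32 CKO cells and 25 of 55 WT cells, but the 2 CKO cells held 271 UMIs and the 25 WT cells 207, so the level was 199 CPM (176 to 225) in CKO and 76.1 CPM (66.1 to 87.2) in WT. In this gate 11.7% of 8072 genes were at least 2-fold higher in CKO, 6.75% at least 2-fold lower and 18.4% past 2-fold either way. Those 2 CKO cells are the highest Car1 cells of the library, at 6.47% and 9.57% globin. This gate also held different neighbours, since the platelet gene Pf4 stood at 2996 CPM over non-globin UMIs in its Car1-negative CKO cells and 276 in its Car1-negative WT cells.

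In the erythroid gate the order was the other way round. Car1 had 638 UMIs in 29 of 253 CKO cells and 126 UMIs in 7 of 161 WT cells, or 67.3 CPM (62.2 to 72.7) in CKO and 21.7 CPM (18.1 to 25.8) in WT, a ratio of 3.10 (2.56 to 3.79; log2 ratio 1.63). Of the 8951 genes measured in this gate, 9.17% were at least 2-fold higher in CKO, 3.66% at least 2-fold lower and 12.8% past 2-fold in either direction. The WT value rested on 1 cell: 117 of the 126 UMIs came from a single cell with 0.110% globin, and 9 UMIs remained without it. Within cells of at least 5% globin, 252 CKO cells held 638 Car1 UMIs and 154 WT cells held 2, a log2 ratio of 7.53 (5.67 to 10.58).

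The globin-filled Car1 cells of CKO were the less filled ones of their gate. In the 6 CKO erythroid-gated cells with 1% to 10% globin, Car1 stood at 1588 CPM (1423 to 1767; in this and the next paragraph CPM leaves the globin UMIs out of the total) and 3 of them had it. The 25 CKO cells with 10% to 20% globin held 195 CPM (167 to 226), with Car1 in 9 of them. In the 126 CKO cells with 20% to 30% globin it stood at 32.8 CPM (27.2 to 39.2), in 12.7% of cells (7.44% to 19.8%), and in the 96 cells with more globin at 1.89 CPM (0.514 to 4.83). Each step towards more globin thus had a lower Car1 level.

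WT had few cells on the middle steps of that scale. The 6 globin-poor WT erythroid-gated cells (under 1% globin) held 123 Car1 UMIs in 4 cells, or 396 CPM (329 to 472). There was 1 WT cell with 1% to 10% globin, with 1 Car1 UMI. The 5 WT cells with 10% to 20% globin held 0 Car1 UMIs, where with so few cells the exact interval reaches 52.2% of cells. At 20% to 30% globin, 16 of 126 CKO cells and 1 of 59 WT cells (1.69%, 0.0429% to 9.09%) had Car1, and the WT level was 0.706 CPM (0.0179 to 3.93). At 30% or more globin, 1 of 96 CKO cells and 1 of 90 WT cells had Car1.

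**Figure D3:**
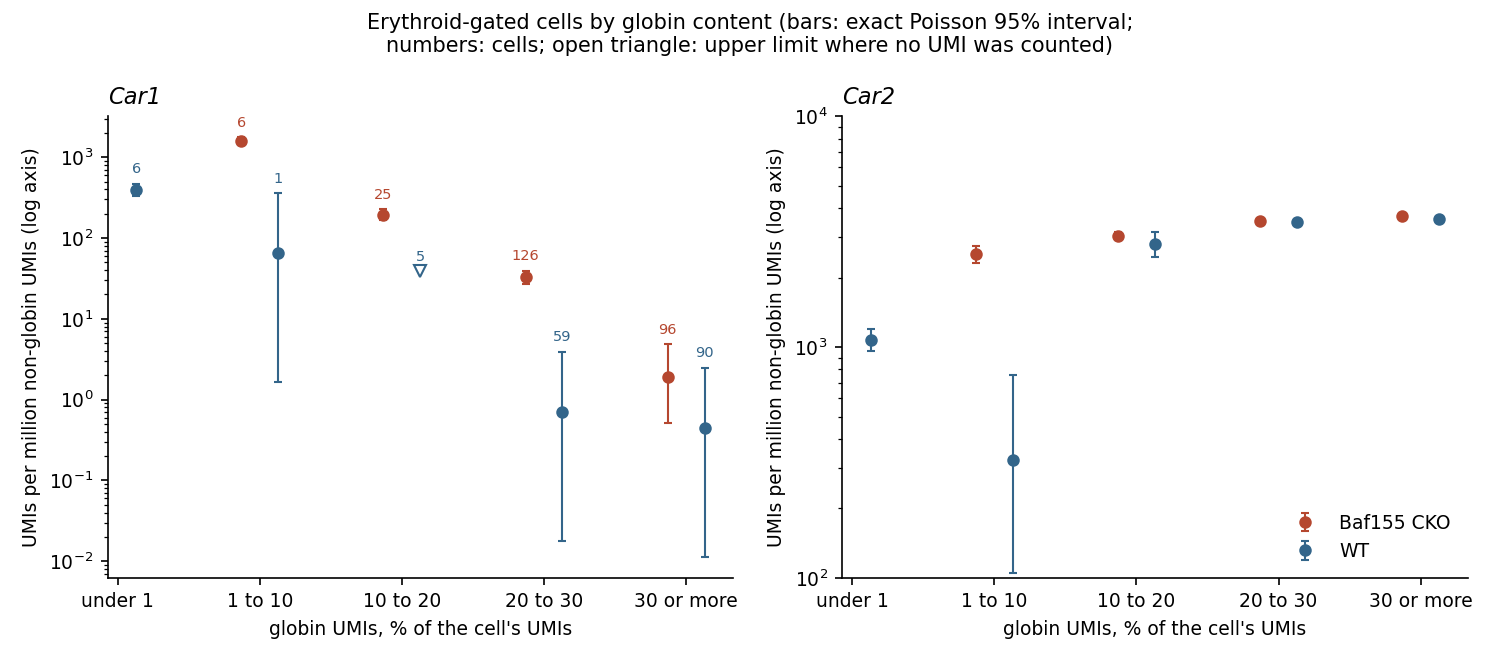
Car1 (left) and Car2 (right) as CPM over UMIs that are not globin (vertical log axes) in erythroid-gated cells binned by globin content in percent of UMIs (horizontal axis), Baf155 CKO in red to the left of WT in blue, with exact Poisson 95% intervals and the number of cells above the Car1 points. In CKO, Car1 stands at 1588 in the bin of 1% to 10% globin and at 1.89 in the bin of 30% or more, while Car2 stays between 2530 and 3708.

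Xist and Y-linked UMIs mark cells of female and male embryos, and the Car1 cells fell unevenly on the 2 sides. Any cell with an Xist UMI counted as Xist-positive, also with Y-linked UMIs, while Y-positive cells had to lack Xist. Whether free Xist RNA placed male cells in the Xist-positive set was not tested. Among erythroid-gated CKO cells, the 174 with an Xist UMI held 631 Car1 UMIs in 27 cells (92.8 CPM, 85.7 to 100.3), and the 63 with a Y-linked UMI and no Xist held 7 in 2 cells (3.14 CPM, 1.26 to 6.48). Among erythroid-gated WT cells, the 74 with Xist held 1 Car1 UMI, and the 61 with a Y-linked UMI held 125, of which 117 were in the single highest cell. Globin filling differed in the same way, since 29 of the 174 Xist-positive CKO cells had 5% to 20% globin and 1 of the 63 Y-positive CKO cells did. Within 5% to 30% globin, Car1 was in 26 of 128 Xist-positive CKO cells (20.3%, 13.7% to 28.3%) and 2 of 24 Y-positive CKO cells (8.33%, 1.03% to 27.0%), against 0 of 39 Xist-positive WT cells and 1 of 18 Y-positive WT cells. The difference between genotypes in globin-filled cells therefore rests on Xist-positive CKO cells, and genotype, embryo and stage cannot be told apart in it. In the progenitor gate Car1 had 4 UMIs in Xist-positive CKO cells (1.95 CPM, 0.532 to 5.0) and 51 UMIs in Xist-positive WT cells (12.3 CPM, 9.13 to 16.1). It had 2 UMIs in Y-positive CKO cells (0.787 CPM, 0.0953 to 2.84) and 10 in Y-positive WT cells (3.28 CPM, 1.57 to 6.03), where the log2 ratio of -2.06 had an interval that includes 0 (-5.29 to 0.17).

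The globins in these cells separated them further. The adult beta-globins Hbb-bs and Hbb-bt made up 1.52% of beta-globin UMIs (1.46% to 1.59%) in the 29 globin-filled CKO Car1 cells, and 0.743% (0.730% to 0.757%) in the 223 equally gated CKO cells without Car1. In the 28 globin-poor WT Car1 cells they made up 14.3% (12.8% to 15.8%; 313 of 2195 UMIs), against 1.39% (1.37% to 1.41%) in globin-filled WT cells without Car1 and 1.29% (0.776% to 2.0%) in WT stroma. Car1-negative progenitor-gated cells stood at 4.09% (3.68% to 4.52%) in CKO, above the globin-filled CKO Car1 cells. In WT they stood at 6.55% (5.50% to 7.73%), below the globin-poor WT Car1 cells. The median Car1-negative progenitor-gated cell had 0.565% in CKO and 0% in WT. The share in the median Car1 cell was 0.484% in the globin-filled CKO set and 17.4% in the globin-poor WT set. In the globin-filled CKO cells without Car1 it was 0.226%. In the WT Car1 set 1 cell held 95 of the 313 adult UMIs. In the CKO Car1 set the highest cells held 410, 335 and 304 of the 2184. The embryonic gene Hbb-bh1 was 59.2% of all globin UMIs in the globin-poor WT Car1 cells and 25.4% in WT stroma, while it was 26.7% in the globin-filled CKO Car1 cells and 25.4% in CKO stroma. This pooled WT share leans on a few cells. Those with the most beta-globin held 372, 264, 250 and 198 of the 2195 UMIs, of which 4, 0, 16 and 0 were adult. The 10 CKO Car1 cells with little globin had 1 adult beta-globin UMI of 644 (0.155%, 0.00393% to 0.862%). Hba-a1 and Hba-a2 are near-identical copies, as are Hbb-bs and Hbb-bt, whose reads the counting may have split or dropped, so only their sums are read here.

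**Figure D4:**
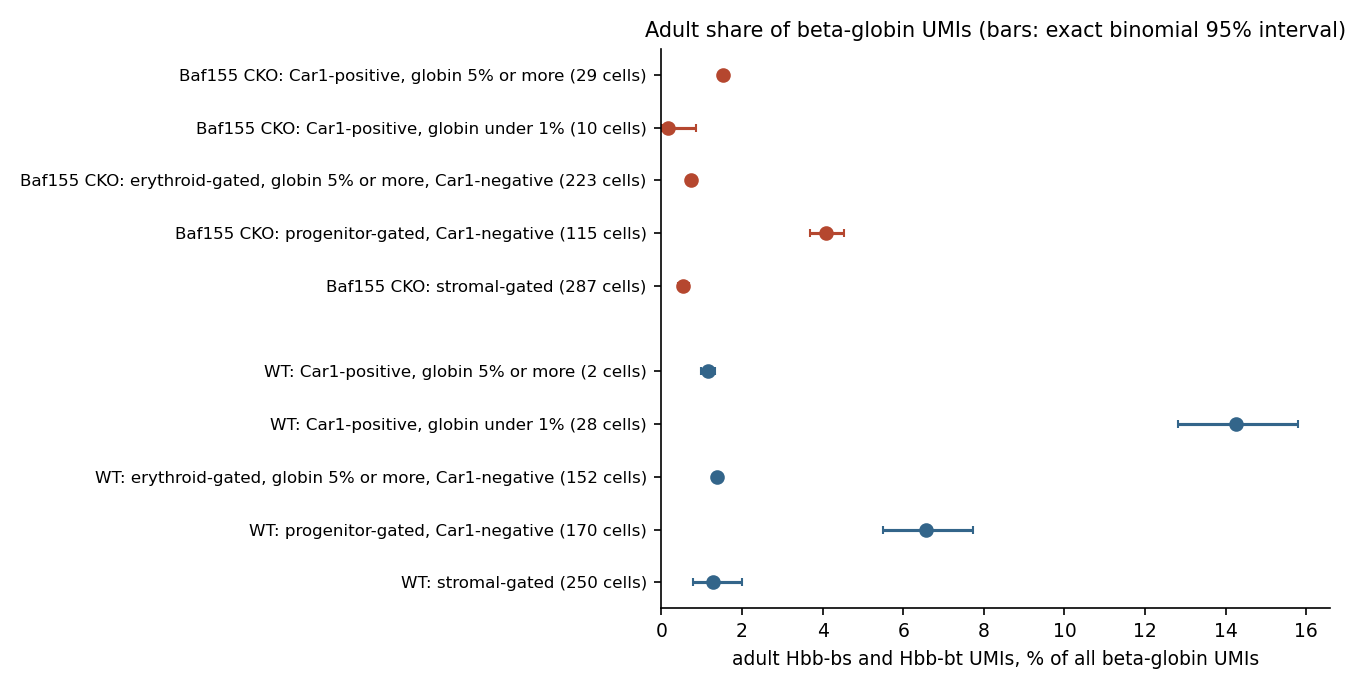
Share of adult Hbb-bs and Hbb-bt in beta-globin UMIs, in percent (horizontal axis), for sets of cells with and without Car1, Baf155 CKO above WT; bars are exact binomial 95% intervals over UMIs. The 28 globin-poor WT Car1 cells stand at 14.3%, and the 29 globin-filled CKO Car1 cells at 1.52%.

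Beyond globin, the 2 kinds of Car1 cell differed in several progenitor genes, but these values are not independent of the gates. All 29 CKO cells were erythroid-gated, and 16 of the 28 WT cells were progenitor-gated. Myb, Gata2, Cd34 and Kit are markers of the progenitor gate, and Klf1, Alas2 and Slc4a1 of the erythroid gate. The values below therefore only describe the 2 sets. In CPM over non-globin UMIs, the erythroid master regulator Klf1 stood at 350.5 in the globin-filled CKO Car1 cells and 209 in the globin-poor WT Car1 cells. Myb, a regulator of definitive progenitors, stood at 6.0 in the CKO set and 80.7 in the WT set, Gata2 at 1.20 and 64.0, the integrin Itga2b at 24.0 and 67.0, and the TGF-beta family ligand Gdf3 at 0 and 55.6. The progenitor marker Cd34 had 2 UMIs in each set, and the receptor gene Kit stood at 2.40 in the CKO set and 16.8 in the WT set. Genes of maturing red cells ran the other way, with the haem synthesis enzyme Alas2 at 961 in the CKO set and 6.85 in the WT set, and the anion exchanger Slc4a1 at 332 and 1.52. Beside the Car1-negative CKO cells of the globin-filled gate, the CKO set had a like level of Klf1 (346 in those cells), more Itga2b (10.4 in them), and less Alas2 (1310), Slc4a1 (486) and Tfrc (182 in the CKO set and 297 in them), while the Myb intervals overlapped (6.0, 1.95 to 14.0, in the CKO set and 1.98, 1.02 to 3.46, in them). Smarcc1 stood at 10.8 in the CKO set and 67.8 in the WT set. It had 0 UMIs in 24 of those 29 CKO cells, beside 205 of all 253 erythroid-gated CKO cells, so its absence does not set the Car1 cells apart in their gate.

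Car2, the fast cytosolic enzyme, differed little between the genotypes in the cells that make most of it. All 253 CKO and all 161 WT erythroid-gated cells had Car2, at 2546 CPM (2514 to 2578) in CKO and 2338 CPM (2299 to 2378) in WT, a ratio of 1.09 (1.07 to 1.11). Over non-globin UMIs it stood at 3523 CPM in CKO and 3476 CPM in WT cells with 20% to 30% globin, and at 3708 CPM in CKO and 3599 CPM in WT cells with more. It was also present in cells with little globin, at 1075 CPM on the same scale in the 6 globin-poor WT erythroid-gated cells. Whether such cells go on to fill with globin was not tested. In the progenitor gate Car2 was in 93.4% of CKO and 84.4% of WT cells, at 359 CPM (342 to 376) in CKO and 299 CPM (287 to 311) in WT, a ratio of 1.20 (1.13 to 1.28). A single CKO cell held 211 of the 1812 CKO UMIs, while the highest WT cell held 63 of 2308, so this ratio leans on that CKO cell. The 2 genes of this stretch of chromosome 3 parted in this gate, with Car1 7.30-fold lower and Car2 slightly higher in CKO, the latter in part through that cell.

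Car2 was not confined to red cells. Endothelium held 287 CPM (267 to 308) in CKO and 302 CPM (269 to 337) in WT, a ratio of 0.952 (0.834 to 1.09), and Car2 was in 91.8% of CKO and 81.0% of WT endothelial cells. Megakaryocytes held 477 CPM (443 to 514) in 59 CKO cells and 612 CPM (550 to 679) in 14 WT cells. Among classes of at least 20 cells, neighbours in the order of Car2 levels had separate intervals, except WT endothelium and progenitors and WT stroma and macrophages. Car2 UMIs per 1000 globin UMIs were 121 in CKO and 689 in WT endothelium, against 9.45 in CKO and 7.84 in WT erythroid cells.

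In stroma Car2 was low and higher in CKO, at 36.1 CPM (31.8 to 40.8) in CKO and 8.85 CPM (6.61 to 11.6) in WT, a ratio of 4.08 (3.02 to 5.60), where 6.32% of 11201 measured genes were at least 2-fold higher in CKO. A Car2 UMI was in 43.2% of CKO and 16.0% of WT stromal cells, at median depths of 21999 and 22612 UMIs. The free globin of stromal cells moved with it, as given above, and 5 of 10 measured early erythroid genes were also at least 2-fold higher in CKO stroma. Car2 UMIs per 1000 globin UMIs were 15.3 in CKO and 26.3 in WT stroma, above the erythroid figures in both, and the part of free RNA in the difference was not tested.

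Car4, the membrane-anchored enzyme, marked stroma and endoderm and was close to absent from blood. It stood at 111 CPM (104 to 119) in CKO stroma and 165 CPM (155 to 176) in WT stroma, a ratio of 0.673 (0.612 to 0.740). The share of stromal cells with a Car4 UMI was 59.6% in CKO and 60.4% in WT, and 41.7% and 48.0% after thinning to 10000 UMIs. In visceral endoderm it stood at 1066 CPM (878 to 1283) in 4 CKO cells, of which 1 held 77 of the 112 UMIs, and at 872 CPM (809 to 938) in 31 WT cells. In erythroid-gated cells it stood at 1.06 CPM in CKO and 0.344 CPM in WT, and in no other blood class of either library was it above 0.792 CPM. The lower library total of Car4 in CKO, 923 UMIs against 1709 in WT, goes with the small number of CKO endoderm cells as well as with the lower stromal level.

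Within stroma Car4 followed the mesothelial markers. Stromal cells with at least 2 of 7 mesothelium markers had 163 CPM in CKO and 254 CPM in WT, while those with fewer had 45.5 CPM in CKO and 73.8 CPM in WT, a ratio of with over without of 3.58 (2.99 to 4.33) in CKO and 3.44 (2.95 to 4.02) in WT. Msln and Muc16, mesothelial markers of later life, had 0 UMIs in both libraries, so this gate rests on the other 5. The CKO to WT ratio was below 1 in each subset, at 0.664 (0.588 to 0.749) in cells with mesothelium and smooth muscle markers, 0.544 (0.429 to 0.686) with mesothelium markers only, 0.645 (0.503 to 0.825) with smooth muscle markers only, and 0.530 (0.329 to 0.848) with neither. For comparison, in stroma 3.72% of the 11201 genes were at least 2-fold lower in CKO, 10% were past 2-fold either way, and Car4 itself ranked 1321 from the low end.

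**Figure D5:**
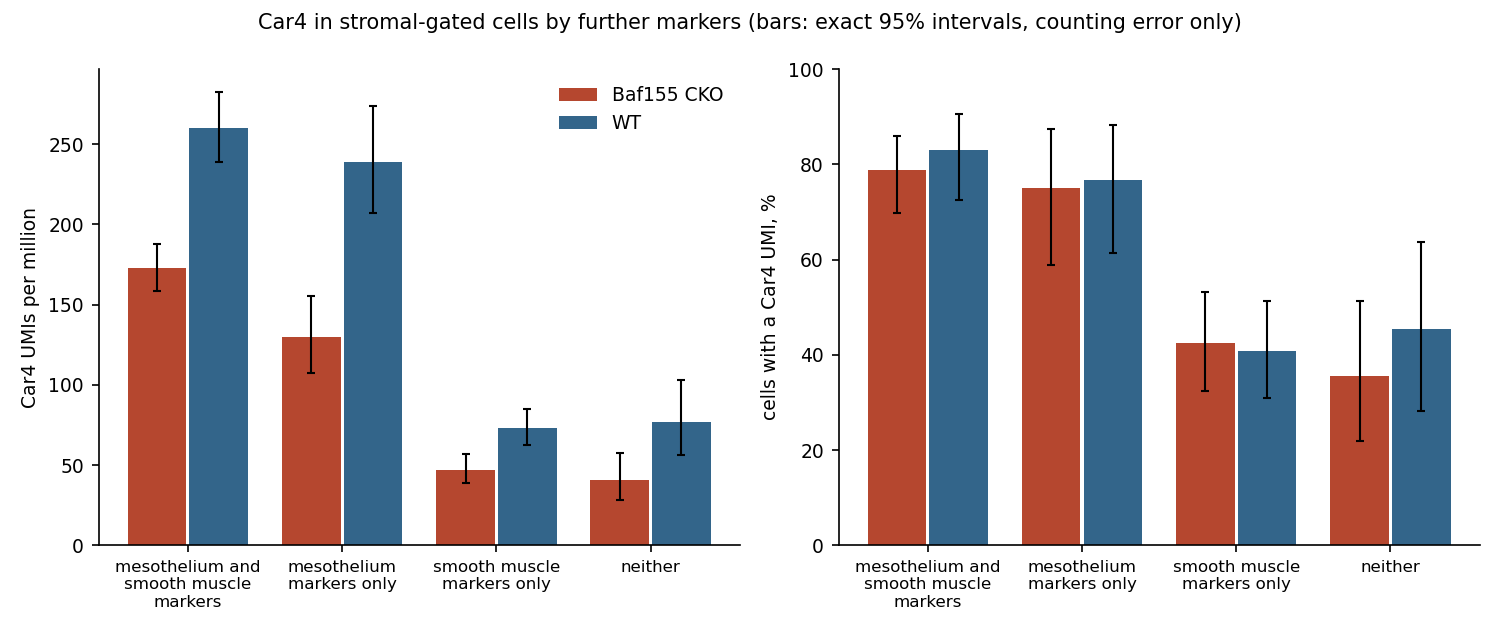
Car4 in stromal-gated cells split by further markers (horizontal axis), in CPM (left) and as the percent of cells with a Car4 UMI (right), Baf155 CKO in red to the left of WT in blue, with exact 95% intervals for counting error only. Cells with mesothelium and smooth muscle markers stand highest, at 173 CPM in CKO and 260 CPM in WT.

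Car14, the membrane-spanning enzyme, was sparse and highest in endoderm, which held 50% of its CKO UMIs and 41.3% of its WT UMIs. It had 20 UMIs in all 4 CKO endoderm cells (190 CPM, 116 to 294) and 50 UMIs in 24 of 31 WT endoderm cells (60.6 CPM, 45.0 to 80.0). In stroma 8 UMIs were counted in 6 CKO cells and 32 UMIs in 7 WT cells, or 1.12 CPM (0.485 to 2.21) in CKO and 5.45 CPM (3.73 to 7.69) in WT, a ratio of 0.206 (0.0821 to 0.457). A single WT cell held 19 of those 32 UMIs, and 29 of the 32 lay in 5 WT cells with neither mesothelium nor smooth muscle markers. With only CKO cells lacking Smarcc1 UMIs it was 1 UMI against 32, and among Y-positive stromal cells 0 against 4. No Car14 UMI was seen in 253 CKO or 161 WT erythroid-gated cells, where the exact intervals reach 1.45% and 2.27% of cells.

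A second WT group with Car14 stood outside the gates. The 14 ungated WT cells with a Car14 UMI held 36 UMIs, against 5 UMIs in 2 ungated CKO cells. Their Car4 count was 9 UMIs in all, Epcam was in 2 of 14, and their median number of endoderm markers was 0, whereas Epcam was in all 24 of the WT endoderm cells with Car14. Genes that led in these 14 cells were the retinoic acid binding protein Crabp2, at 488 CPM in them and 3.32 CPM in the other WT cells, the neural and pluripotency factor Sox2, at 187 and 0.168 CPM, the stress-response gene Ddit4, at 481 and 8.69 CPM, Hoxb9, at 171 and 0.839 CPM, and the mesoderm factor Meox1, at 207 and 2.69 CPM. They were not uniform in them: Crabp2 and Ddit4 were each in 9 of the 14 cells, Hoxb9 in 10, and Sox2 and Meox1 in 5 each. These were picked after their values were seen, and no marker list fixed here names the cells.

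Of the other 12 family genes, Car7 reached a high level in WT endoderm. Of these 12, 7 had at least 20 UMIs over both libraries, 3 had fewer, and Car10 and Car15 had 0. Car7, a cytosolic enzyme, was an endoderm gene like Car4, with 289 of its 299 WT UMIs in visceral endoderm (351 CPM, 311 to 393) and 5 of its 14 CKO UMIs there. Car8, a family member without catalytic activity, stood highest in endothelium, at 21.4 CPM (16.2 to 27.8) in CKO and 16.3 CPM (9.51 to 26.1) in WT. Progenitors followed, at 11.3 CPM (8.55 to 14.6) in CKO and 9.19 CPM (7.17 to 11.6) in WT, and in WT the intervals of these classes overlapped. In stroma Car8 had 39 UMIs in 24 CKO cells and 2 UMIs in WT, a ratio of 16.1 (4.16 to 137). Car13, another cytosolic enzyme, was higher in CKO stroma, at 11.7 CPM against 4.08 CPM in WT, a ratio of 2.85 (1.79 to 4.70), and had 20 UMIs in CKO and 1 in WT erythroid-gated cells. Car9, a membrane enzyme known as a hypoxia target, had 22 UMIs in CKO and 34 in WT progenitors, a ratio of 0.990 (0.552 to 1.74). Car3 had 23 CKO and 5 WT UMIs in all cells, and Car5b, a mitochondrial enzyme, 19 and 5. Car11, which lacks activity, had 12 and 10.

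In the progenitor and erythroid gates, the share of genes around carbon dioxide and proton movement past 2-fold was near that of all genes. Of 21 transport genes, 13 were measured in progenitors, where 1 was at least 2-fold higher in CKO (Slc4a1, 22 UMIs in CKO and 2 in WT), 1 at least 2-fold lower (the water channel Aqp1, 3 and 18 UMIs), 15.4% in all beside 11.7% of all measured genes, and the median log2 ratio was 0.18 against 0.02 over all measured genes. In erythroid-gated cells 12 were measured and 1 was past 2-fold, the Rhesus gene Rhd at 51.4 CPM in CKO and 118 CPM in WT, a ratio of 0.436 (0.387 to 0.490), which is 8.33% of the list beside 12.8% of all genes, with a median log2 ratio of 0.39 against 0.13. In the erythroid-primed gate 12 were measured and 3 were at least 2-fold higher in CKO (25% beside 11.7% of all genes): Slc4a1, the anion exchanger Slc4a2 (13 UMIs in CKO and 10 in WT) and the Rhesus-associated gene Rhag (50 and 42 UMIs). The band 3 gene Slc4a1, which exchanges the bicarbonate that carbonic anhydrase makes, stood at 340 CPM in CKO and 213 CPM in WT erythroid cells, a ratio of 1.60. In stroma 15 were measured, 3 of them at least 2-fold higher in CKO, where 6.32% of all genes were, and 2 at least 2-fold lower, where 3.72% were. The lactate and proton exporter Slc16a3 stood at 250.2 CPM in CKO and 76.6 CPM in WT stroma (3.27, 2.94 to 3.63), and its chaperone Bsg at 1728 CPM in CKO and 834 CPM in WT stroma (a ratio of 2.07). The remaining higher gene in stroma was Slc4a1, with 26 UMIs in CKO and 3 in WT. It is a marker of the erythroid gate, and the median globin share of progenitors was also higher in CKO, at 0.239% against 0.0351% in WT. The part of free RNA in its progenitor and stromal ratios was not tested. In endothelium the scaffold Slc9a3r1 stood at 25.6 CPM in CKO and 68.2 CPM in WT, a ratio of 0.375 (0.265 to 0.530), in a class where 7.09% of genes were at least 2-fold higher in CKO, 9.63% at least 2-fold lower and 16.7% past 2-fold either way.

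Early erythroid genes went with Car1 in the progenitor gate. Of 20 such genes, several of them listed with earlier results in view, 18 were measured there, and 10 were at least 2-fold lower in CKO, where 4.26% of all genes were, and 1 was at least 2-fold higher, where 7.45% were. Their median log2 ratio was -1.36, against 0.02 over all measured genes. Klf1, Ermap and Hemgn are also markers of the erythroid gate, which competes with the progenitor gate for cells that express them. Since the list was also chosen in part on these data, the count in this gate and the ratios of its genes are descriptions only. In the erythroid-primed gate, as for Car1, the list leaned the other way, with a median log2 ratio of 0.31. There 6 of 20 were at least 2-fold higher in CKO (Gfi1b, Ermap, Tfrc, Tspan33, Hemgn and Trib3), beside 11.7% of all genes. At least 2-fold lower were 3 (Steap3, Gdf3 and Muc13), beside 6.75%. All 6 markers of that gate (Klf1, Gata1, Epor, Gfi1b, Zfpm1 and Ermap) are in the list. The count there is therefore not independent of how the cells were chosen. The gate also held unlike cells, since 17 of its 32 CKO cells and 54 of its 55 WT cells had under 1% globin. In the progenitor gate Klf1 stood at 1.39 CPM in CKO and 32.5 CPM in WT progenitors, 23.4-fold lower (11.2 to 58.9), the erythroid factor Gata1 at 5.94 and 30.9 CPM, the erythropoietin receptor Epor at 4.36 and 13.2 CPM, and the haem enzyme Cpox at 30.1 and 71.3 CPM. Steap3 and Muc13 were lower as well, at 3.76 and 3.37 CPM in CKO against 18.8 and 13.7 CPM in WT. The exception was the pseudokinase gene Trib3, at 42.0 CPM in CKO and 2.33 CPM in WT. Gfi1b, Tal1, Nfe2 and the transferrin receptor gene Tfrc stood at ratios of 1.55, 1.37, 1.53 and 1.53, and Zfpm1, a cofactor of Gata1, at 0.692. In the erythroid gate 18 were measured, 2 were at least 2-fold higher in CKO (Nfe2 at 2.32 and the lipid transporter Mfsd2b at 2.30 times the WT level), 1 was lower (Rhd), and the median log2 ratio was 0.15 against 0.13 over all genes. All 31 WT Car1 cells had a Klf1 UMI, and 28 of the 39 CKO Car1 cells did.

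Across the 11 pairs of class and library with at least 20 cells, the level of Car1 was closest in pattern to Klf1 (Pearson r = 0.958 on log2(CPM + 5)), the potassium channel Kcnn4 (0.957), Nadk2 (0.955), Slc38a5 (0.947) and Alad (0.946), out of 10178 genes compared. Klf1 is also a gate marker, and the points share 2 libraries, so these values only describe the order. Genes close to Car2 were Vti1a (0.930), Dyrk3 (0.911), Slc43a1 (0.904) and Usp4 (0.882). Car4 was closest to the desmosome genes Dsg2 (0.998) and Dsc2 (0.996), followed by Lpar3 (0.995), Prkcz (0.994) and Cep170b (0.990). Car14 was closest to Krt7 (0.991), Slc13a4 (0.985), Cgref1 (0.979), Palm3 (0.976) and Pla2g12b (0.974). For Car4 and Car14 a single point, WT visceral endoderm, is far above the rest. Among the members themselves r was 0.724 between Car1 and Car2, 0.844 between Car4 and Car14, and below 0 for the other pairs.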

How the data were processed

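Each library was deposited as 1 matrix of raw UMI counts, which were whole numbers, by gene and barcode; per the submitters' processing notes the authors used Cell Ranger, GRCm38 and Seurat, with no version given in the sources used here. No normalized values were used. A barcode was kept with 500 genes or more and no more than 10% mitochondrial UMIs, after removing Scrublet doublets (expected rate 1%; 6 CKO and 3 WT barcodes, 0.694% and 0.368%); 18 CKO and 28 WT barcodes were over the mitochondrial limit. The libraries held 865 CKO and 815 WT barcodes, with 6328 to 96471 and 6054 to 114332 UMIs each, and shared 1 barcode.

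A marker counted as present at 2 UMIs. A cell took the class with the largest fraction of its markers present, with at least 3 present, and stayed ungated on a tie; this rule was chosen after seeing the data, and 4 markers were not found in the gene table. Counts were summed per class and library and given as CPM, with exact Poisson, Clopper-Pearson binomial and conditional binomial 95% intervals; UMIs of a cell are not independent, so these cover counting error only. In a ratio, a count of 0 was replaced by a floor of 3 counts where the text says so. No p-value was computed, because each genotype has 1 library. Genes needed 20 UMIs over both libraries for a ratio.

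The members and lists were chosen with earlier results of these data known. Named genes are the members, family genes with at least 20 UMIs, the 5 genes most similar in pattern to each member, globins, and list genes with at least 100 UMIs that were past 2-fold; other list genes and the genes of the Car1 cells and of the ungated Car14 cells were picked as examples. Some genes that the rule names are not reported here. Coding sequences came from GENCODE M21 transcripts; the gene table had 32655 of its IDs there. Alternatives tried were a stricter gate, other cell filters, doublets kept, CKO cells without Smarcc1 UMIs, Xist-positive or Y-positive cells, other scalings, thinning and other count minimums. Ratio code was tested on simulated counts. Software was scanpy 1.11.5, scipy 1.17.1, matplotlib 3.10.9, pandas 2.3.3 and numpy 2.4.6 under Python 3.11.15.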

Additional observations from a re-analysis of the deposited data

Results flagged for a closer look

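Car1 moved in opposite directions in the 2 blood gates: its log2 ratio of CKO over WT was -2.87 in progenitor-gated cells and 1.63 in erythroid-gated cells. With 1 library per genotype this difference between the gates was not tested. It rests on few cells, since the 5 highest cells hold 68.1% of Car1 UMIs in CKO and 79.9% in WT, and the erythroid part rests on Xist-positive cells in CKO and on 1 cell in WT.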

How the results depend on the processing

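Values are log2 ratios of CKO over WT unless said otherwise, and the settings called added were chosen after seeing the data. Car1 in erythroid-gated cells (1.63) was 7.89 in Xist-positive cells (5.41 to 13.20, 631 against 1 UMIs), -3.97 in Y-positive cells, where its direction turned, 2.80 as a mean of per-cell CPM and 2.49 after thinning; the added settings gave 5.06 without the highest cell of each library and 7.53 in globin-filled cells (5.67 to 10.58). Car1 in progenitor-gated cells (-2.87) turned to 1.39 in the added erythroid-primed gate and kept its direction in the other settings. Car2 in erythroid-gated cells (0.12) was 0.19 with CKO cells lacking Smarcc1 UMIs, 0.17 in Xist-positive cells, 0.06 over non-globin UMIs and 0.08 in the added set of globin-filled cells. Car2 in progenitor-gated cells (0.26) was 0.43 with CKO cells lacking Smarcc1 UMIs, 0.40 in Xist-positive cells and 0.53 in the added erythroid-primed gate. With CKO cells lacking Smarcc1 UMIs, Car4 in stroma was -0.72 instead of -0.57 and Car14 in stroma -4.49 (-9.84 to -1.91, 1 against 32 UMIs) instead of -2.28; Car14 was at most -0.47 in Y-positive stromal cells, against a floor of 3 counts. The median globin share of CKO Car1 cells, 18.1%, was 0.262% among the 7 Y-positive ones. With no filter on counts, 3 transport genes instead of 1 were past 2-fold in erythroid-gated cells. In progenitors, early erythroid genes past 2-fold numbered 7 instead of 11 at 100 UMIs, and all genes past 2-fold were 5.97% at 100 UMIs and 30.9% with no filter, instead of 11.7%. The causes were not tested, beyond the smaller number of cells or genes that a setting leaves. The other 72 values kept their direction within counting error or, for globin shares and counts of genes, near the first value. Some of them could not move. Removing the highest Car1 cell of each library left the progenitor gate as it was, since both cells are erythroid-gated. Keeping doublets added no progenitor cell. Without its own highest cell, the WT progenitor gate kept 40 of its 67 Car1 UMIs. No paired analysis was possible because each genotype has 1 library. Depth limits Car14 and Car1 most, at 40 and 648 CKO UMIs and 121 and 229 WT UMIs, and 45 CKO and 74 WT cells were too shallow for thinning.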
